A study of Mus musculus with 20 samples.

Results

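*Marco* and 9 further genes used as markers of Kupffer cells were followed in mouse liver after exposure to benzo(a)pyrene (BaP). *Marco* was chosen by its rise with dose in these samples, measured as a log2 ratio of liver to reference RNA, so its own change is described here without a test, and the comparison of interest was whether the other markers moved with it. The genes were *Marco*, *Clec4f*, *Vsig4*, *Cd5l*, *Timd4*, *Adgre1*, *Csf1r*, *Cd68*, *C1qa* and *Msr1*. All probes whose accession maps to these symbols were taken, which gave 14 of the 41174 probes on the array, for 9 of the 10 genes. *Cd68* had no probe that could be matched and was not analysed here. Of the 14 probes, 12 were called present, for all 9 matched genes, among 27346 present probes of the whole array. The other 2, a dim probe each of *Adgre1* and *Csf1r*, were well above background on 0 and 1 of 20 arrays, and they are not considered further.

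The animals were male Muta™Mouse (a transgenic strain that carries a *lacZ* reporter used to count mutations), 25 weeks old. Each of the 4 groups held 5 mice. The controls received the olive oil vehicle (replicates 1 to 5), and the other groups received BaP in olive oil at 25 (replicates 6 to 10), 50 (replicates 11 to 15) or 75 mg/kg/day (replicates 16 to 20), by oral gavage for 28 days with 3 days between the last dose and collection. Liver RNA, labeled with Cyanine 5, was hybridized against a universal mouse reference RNA made from 11 cell lines, labeled with Cyanine 3. Each value below is a log2 ratio of liver over reference on 1 array, so 1 unit is a doubling of that probe's ratio, and levels of different probes are not compared with each other. The liver channel was well above background at 51.9 to 67.5% of spots, with the highest share in control replicate 4. The 20 arrays lay on 6 slides, and the position of an array on its slide coincided with the dose almost wholly.

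Kupffer cells are the resident macrophages of the liver. They line the sinusoids, where they take up bacteria, dying red blood cells and lipoprotein particles from the portal blood. MARCO (macrophage receptor with collagenous structure) is a class A scavenger receptor that binds bacteria and inhaled particles, and its transcript is carried by a subset of macrophages and is induced in them by bacterial products. Of the other genes, *Clec4f* (a C-type lectin), *Vsig4* (a complement receptor), *Cd5l* (a secreted protein of macrophages, also called AIM) and *Timd4* (a receptor for phosphatidylserine on dying cells) are in liver largely restricted to resident Kupffer cells. *Adgre1* (which encodes an adhesion receptor of macrophages), *Csf1r* (the receptor for the growth factor CSF1), *C1qa* (a chain of complement C1q) and *Msr1* (the class A scavenger receptor SR-A) are carried by macrophages more broadly. In RNA of whole tissue, fewer cells of a type and less RNA per cell cannot be told apart.

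Promoter sequence from RefSeq (GRCm38.p6) was used for 6 of the 10 genes: *Marco*, *Clec4f*, *Vsig4*, *Cd5l*, *Timd4* and *Cd68*. The selection of these windows left out a chromosome, so a window of another member may have been passed over. The 250 bases before the annotated start of *Marco* and of 2 markers restricted to Kupffer cells are shown, since the report turns on whether these genes moved together. They are written 5′ to 3′ in the direction of the gene, each of which lies on the minus strand, with motif matches in capitals.
Marco (chr1:120505025-120505274): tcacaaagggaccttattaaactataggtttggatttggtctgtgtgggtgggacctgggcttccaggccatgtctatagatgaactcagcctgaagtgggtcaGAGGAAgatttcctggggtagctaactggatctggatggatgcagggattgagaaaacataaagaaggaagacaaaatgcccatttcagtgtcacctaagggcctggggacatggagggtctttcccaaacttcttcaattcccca
Clec4f (chr6:83656117-83656366): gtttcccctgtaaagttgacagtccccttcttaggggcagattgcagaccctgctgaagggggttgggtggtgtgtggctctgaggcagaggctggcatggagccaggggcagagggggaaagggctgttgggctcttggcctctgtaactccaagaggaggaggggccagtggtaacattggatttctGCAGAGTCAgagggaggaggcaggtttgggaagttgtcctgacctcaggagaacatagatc
Vsig4 (chrX:96293439-96293688): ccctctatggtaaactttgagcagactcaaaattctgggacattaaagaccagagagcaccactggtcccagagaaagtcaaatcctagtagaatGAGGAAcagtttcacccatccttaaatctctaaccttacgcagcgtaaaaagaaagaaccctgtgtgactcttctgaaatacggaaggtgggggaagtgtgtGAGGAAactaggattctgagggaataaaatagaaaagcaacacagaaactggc

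The following motifs were searched on both strands. GAGGAA is the PU box bound by PU.1, the lineage factor of macrophages. GCGTG is the core of the site bound by the aryl hydrocarbon receptor, to which BaP itself binds. TGACNNNGC is the core of the antioxidant response element, and TATAAA is the TATA box. The capitals in *Marco* mark 1 PU box match, 141 to 146 bases before the start. *Vsig4* held 2 such matches, at 48 to 53 and 150 to 155 bases. The capitals in *Clec4f* mark an antioxidant response element core on the opposite strand, 53 to 61 bases before the start. Among the sequences not shown, *Cd5l* and *Cd68* each held 1 PU box match and *Timd4* had no match. GCGTG and TATAAA were not found in any of the 6 windows, and no match overlapped another. Among 32851 promoter windows of the same length, 23.3% held GAGGAA, 28.2% GCGTG, 10.2% TGACNNNGC and 12.4% TATAAA. A match is a description of the letters only.

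In the control livers, the markers restricted to Kupffer cells stood above the mixed cell line reference, as did *C1qa* and *Marco*. The log2 ratio of control liver over reference was 4.82 for *Clec4f*, 6.02 for *Cd5l*, 3.06 for *Vsig4*, 2.92 for *C1qa*, 2.41 for *Marco* and 1.24 for *Timd4*. For *Vsig4* and *Timd4* the reference channel itself was well above background on only 9 and 2 of 20 arrays. *Adgre1* (-0.91), *Csf1r* (-0.37) and *Msr1* (-0.58 by its brightest probe) were lower in control liver than in the reference. The *Msr1* probes differed in direction, since the second was at 0.40 and the third at -0.28. Of the 12 present probes, 6 were called higher and 1 lower in control liver (limma, adjusted p below 0.05, over 1.5-fold), where 23.7% of all present probes were called higher and 22.6% lower. The liver signal of all 12 probes was well above background on 20 of 20 arrays, and the defining markers of Kupffer cells, other than *Cd68*, were thus detected.

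In every animal at the upper 2 doses, the *Marco* ratio lay above that of all controls. Its log2 ratios in control replicates 1 to 5 were 1.83, 2.21, 2.13, 2.81 and 3.04. At 25 mg/kg/day (replicates 6 to 10) they were 3.58, 2.70, 2.74, 3.11 and 2.35, within or just above the control range, with 2 of 5 mice above all controls. At 50 mg/kg/day (replicates 11 to 15) they were 4.01, 4.22, 3.59, 4.45 and 4.33. At 75 mg/kg/day (replicates 16 to 20) they were 4.08, 4.15, 4.37, 5.76 and 4.62. The groups at 50 and 75 mg/kg/day overlapped each other. Over all present probes, 0.527% had every array of the 50 mg/kg/day group above every control, and 0.936% had every array of the top dose so. Since this pattern chose the gene, nothing is read from these shares.

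**Figure D1:**
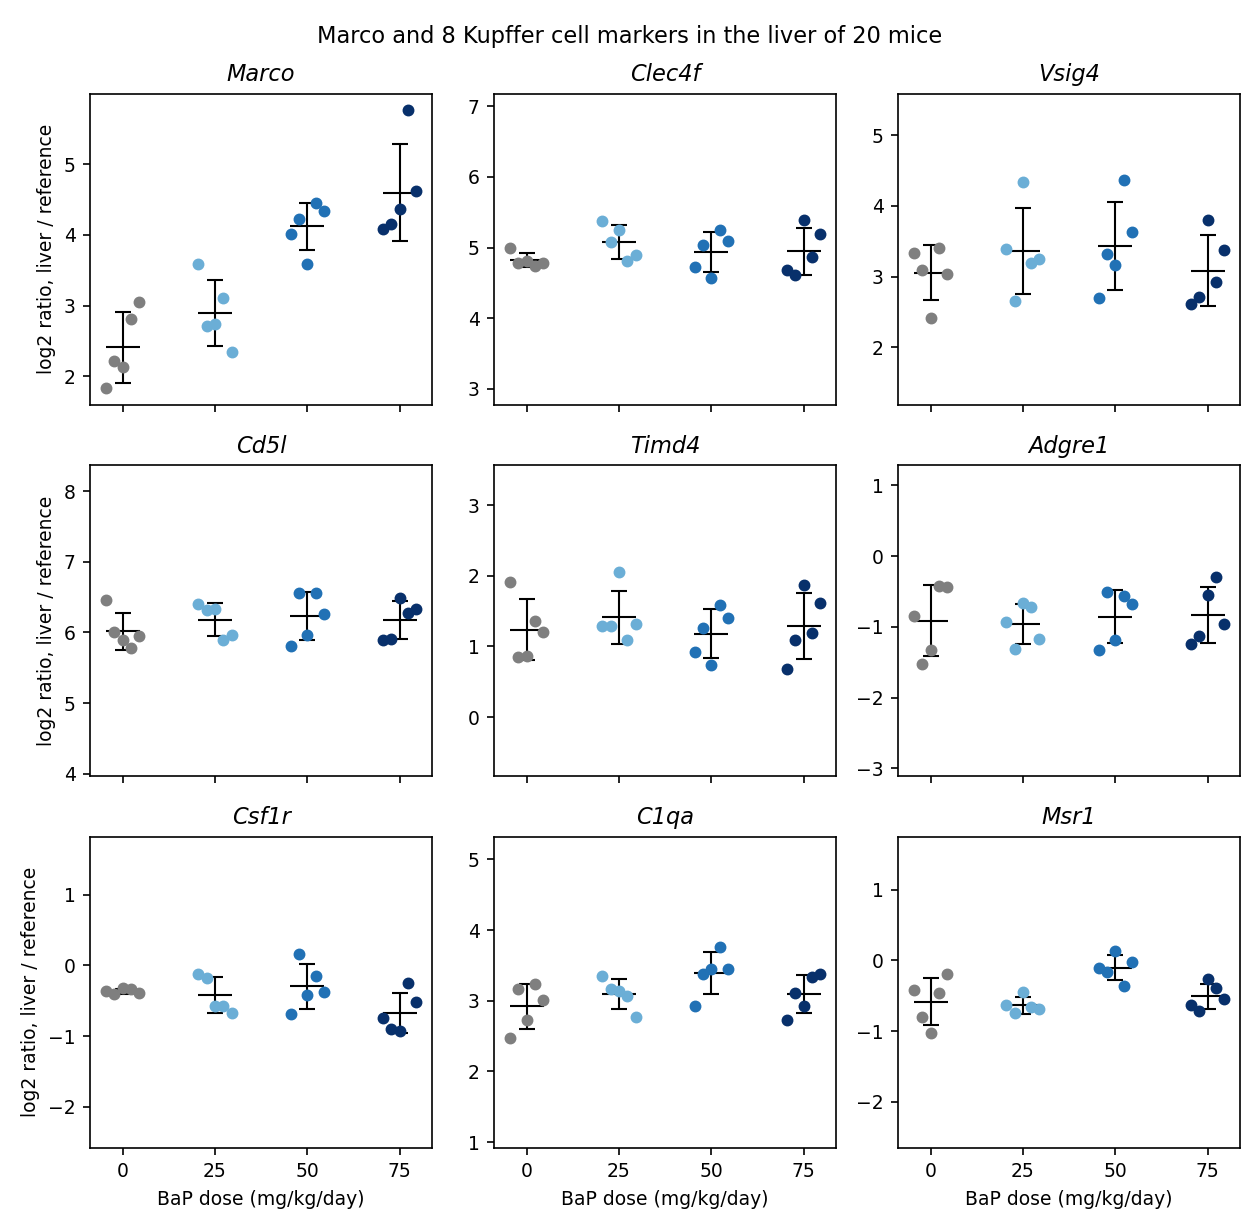
Log2 ratio of liver over reference (vertical axis) by BaP dose (horizontal axis) for the 9 matched genes, 1 point per mouse, with the mean and SD of 5 mice in black. The vertical axes span the same number of log2 units but differ in their level. In *Marco* all 5 mice at 50 and all 5 at 75 mg/kg/day lie over the control range, while every other gene, by the brightest probe shown, overlaps its controls at every dose.

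The log2 fold change of *Marco* against control was 0.49 at 25 mg/kg/day (95% interval -0.13 to 1.11), 1.71 at 50 mg/kg/day (1.1 to 2.33) and 2.19 at 75 mg/kg/day (1.57 to 2.80), each with an SE of 0.295 from limma. In linear terms these were 1.40-, 3.28- and 4.55-fold. The group means were 2.41 ± 0.50 in control, 2.90 ± 0.47, 4.12 ± 0.34 and 4.59 ± 0.69 with increasing dose (SD, n = 5). The step from 25 to 50 mg/kg/day was 1.22 and that from 50 to 75 mg/kg/day was 0.48. Replicate 19 stood highest at the top dose, and the change there was 1.89 without it. With slide as a block in the model the change was 0.060 at 25, 1.71 at 50 and 1.76 at 75 mg/kg/day.

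The 2 highest *Marco* values at the top dose, in replicates 19 and 20, came from the 2 slides that held no control and no 50 mg/kg/day array. On the 3 slides that held a control and all 3 doses, *Marco* exceeded the control of the same slide by 1.52 at 50 and 1.34 at 75 mg/kg/day on slide 1, by 1.40 and 1.32 on slide 2, and by 2.17 and 2.24 on slide 3. Within slides the upper 2 doses thus lay close to each other, and with slide as a block the step from 50 to 75 mg/kg/day was 0.045. On the same 3 slides the 25 mg/kg/day array differed from its control by 0.30, -0.30 and 0.51. The part of slide in the order of the upper 2 doses was not tested.

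None of the 4 markers restricted to Kupffer cells passed the test at any dose. At 25 and 50 mg/kg/day no probe of the whole array was called in the main model, *Marco* included. Not passing there thus does not set the markers apart from it. With slide as a block *Marco* passed at 50 mg/kg/day and the other markers did not. Since its change chose the gene, nothing is read from that. *Clec4f* was tightly held in the controls, at 4.99, 4.79, 4.81, 4.74 and 4.78. In the mice at 75 mg/kg/day it was 4.68, 4.61, 5.39, 4.87 and 5.19, so that 2 lay above and 2 below all controls. Its log2 fold change was 0.26, 0.12 and 0.12 at 25, 50 and 75 mg/kg/day (SE 0.154 at each, adjusted p = 0.684, 0.918 and 0.808 from limma). *Vsig4* varied more between mice. Its ratios were 3.34, 3.09, 2.41, 3.40 and 3.04 in control and 2.61, 2.71, 3.80, 2.92 and 3.38 at 75 mg/kg/day, where the log2 fold change was 0.026 (SE 0.308, adjusted p = 0.986 from limma). *Cd5l* lay between 5.78 and 6.45 in control and between 5.89 and 6.49 at 75 mg/kg/day. Its log2 fold change was 0.16, 0.21 and 0.16 with increasing dose. *Timd4* lay between 0.85 and 1.91 in control and between 0.68 and 1.87 at 75 mg/kg/day, with log2 fold changes of 0.17, -0.056 and 0.049. From the processed signals of the scanner software they were 1.19, 0.016 and 0.69, without a call. Neither *Cd5l* nor *Timd4* passed the test at any dose, with adjusted p of at least 0.761 from limma.

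None of the broader macrophage genes passed either. *Adgre1* gave log2 fold changes of -0.045, 0.059 and 0.079 with increasing dose, with values from -1.52 to -0.42 in control and from -1.24 to -0.30 at 75 mg/kg/day. *Csf1r* was measured by 2 present probes. Its brighter probe read -0.36, -0.40, -0.32, -0.34 and -0.40 in control and -0.74, -0.90, -0.93, -0.25 and -0.51 at 75 mg/kg/day. The controls of this probe lay close together (SD 0.034), and many exposed mice fell outside them on both sides. At 25 mg/kg/day 2 lay above and 3 below all controls, and at 50 mg/kg/day 2 above and 2 below. At 75 mg/kg/day 1 lay above and 4 below. The log2 fold change there was -0.30 (SE 0.153, adjusted p = 0.470 from limma), of the opposite sign to *Marco*. The second probe gave -0.22 (SE 0.094, adjusted p = 0.392 from limma), with 2 of 5 mice below all controls. At 50 mg/kg/day the same probes gave 0.071 and 0.13.

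*C1qa* and *Msr1* had their highest group means at 50 mg/kg/day. *C1qa* read 2.48, 3.16, 2.72, 3.24 and 3.01 in control and 2.92, 3.38, 3.46, 3.76 and 3.45 at 50 mg/kg/day, so that 4 of 5 mice lay above all controls. The log2 fold change was 0.47 (SE 0.167, adjusted p = 0.676 from limma) there, and 0.18 and 0.17 at 25 and 75 mg/kg/day. *Msr1* encodes the scavenger receptor of the same class as MARCO and was measured by 3 present probes. The brightest read -0.42, -0.81, -1.03, -0.46 and -0.19 in control and -0.11, -0.16, 0.13, -0.36 and -0.02 at 50 mg/kg/day, again with 4 of 5 mice above all controls. There the 3 *Msr1* probes gave 0.48, 0.54 and 0.48 (adjusted p between 0.583 and 0.708 from limma). By the second probe 5 of 5 mice lay above all controls (from 0.81 to 1.17, against -0.04 to 0.75 in control) and by the others 4 and 2 of 5 did, where 0.527% of all present probes separated so. At 75 mg/kg/day they gave 0.072, 0.43 and -0.031. Their unadjusted p at 50 mg/kg/day was 0.0021, 0.022 and 0.0092, and that of *C1qa* 0.011.

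Of the 11 present probes of the 8 genes other than *Marco*, limma called 0 higher and 0 lower at 25, 50 and 75 mg/kg/day, 0 for either step between doses and 0 for a linear trend with dose. The background share of probes called was 0% in each direction at 25 and at 50 mg/kg/day, and 0.132% higher and 0.00366% lower at 75 mg/kg/day. For the steps it was 0%, and for the trend 0.154% higher and 0.00366% lower. At an unadjusted p under 0.05 there were 0, 4 and 1 of the 11 probes at 25, 50 and 75 mg/kg/day, where 7.81%, 6.7% and 11.2% of all present probes were so. For the step from 25 to 50 there were 3 of 11 (8.29% of all), for that from 50 to 75 there were 4 of 11 (6.91%), and for the trend 1 of 11 (8.58%). The probes of both steps were of *Csf1r* and *Msr1*, higher at 50 mg/kg/day than at either neighboring dose. Against so small a background, 0 of 11 is not a result about the markers, and their sizes are given next. At 75 mg/kg/day the upper ends of the 95% intervals of the 8 genes (brightest probe) lay between 0.015 for *Csf1r* and 0.67 for *Vsig4*, and the second *Msr1* probe reached 0.89. The median log2 fold change of the 8 genes was 0.17, 0.16 and 0.075 with increasing dose, and that of all 12986 genes lay between -0.0095 and -0.0006. The comparisons with control share the same 5 control arrays.

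**Figure D2:**
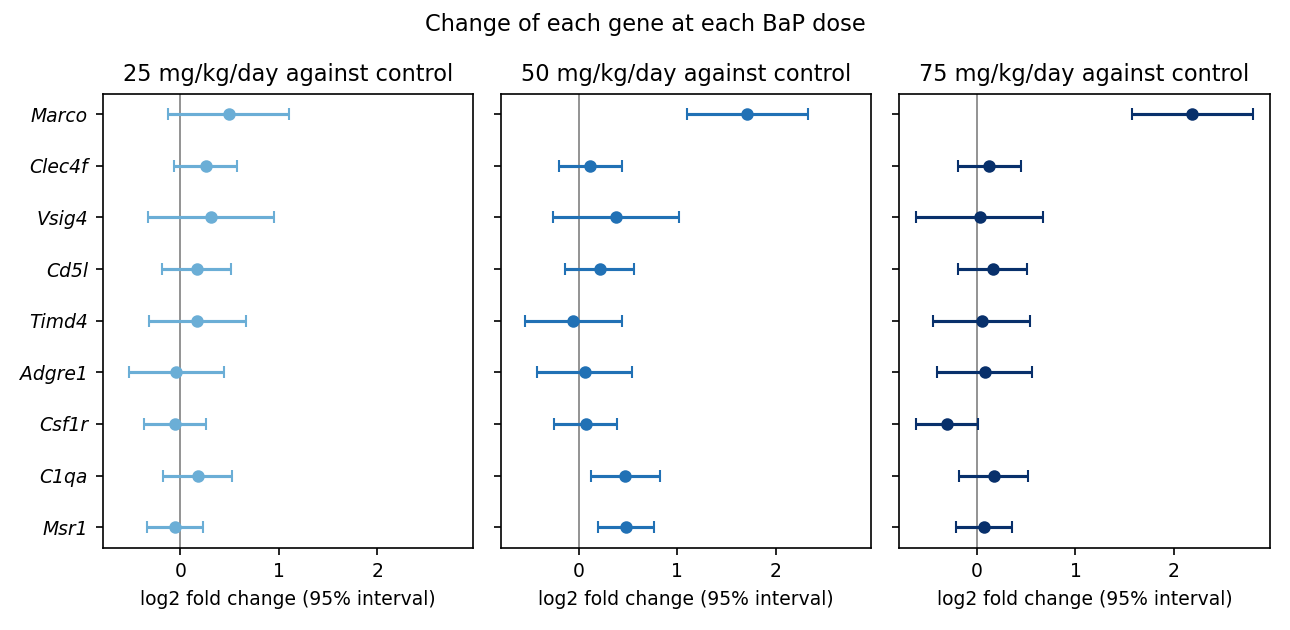
Log2 fold change against control (horizontal axis) with its 95% interval from limma for each gene at 25, 50 and 75 mg/kg/day, by the brightest present probe, 5 mice per group. At 75 mg/kg/day the intervals of the 8 genes other than *Marco* end at or below 0.67. The change of *Marco* chose the gene and is shown as a description.

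Taken per mouse, the mean of the other 8 markers, each relative to its control mean, lay between -0.27 and 0.17 in the controls. It lay between -0.067 and 0.40 at 25 mg/kg/day, between -0.16 and 0.53 at 50 mg/kg/day and between -0.28 and 0.32 at 75 mg/kg/day. *Marco* on the same scale lay between -0.57 and 0.64 in the controls and between 1.67 and 3.36 at 75 mg/kg/day. In replicate 16 *Marco* was 1.67 above its control mean while 0 of the other 8 markers were above theirs, and in replicate 17 it was 1.74 above with 1 of 8. In replicate 19, where *Marco* was highest, 6 of 8 were above, and in replicates 18 and 20 it was 7 and 6 of 8. At 50 mg/kg/day (replicates 11 to 15) 2, 8, 3, 8 and 7 of the 8 markers were above their control means. In the controls (replicates 1 to 5) 7, 2, 1, 6 and 3 of 8 were.

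**Figure D3:**
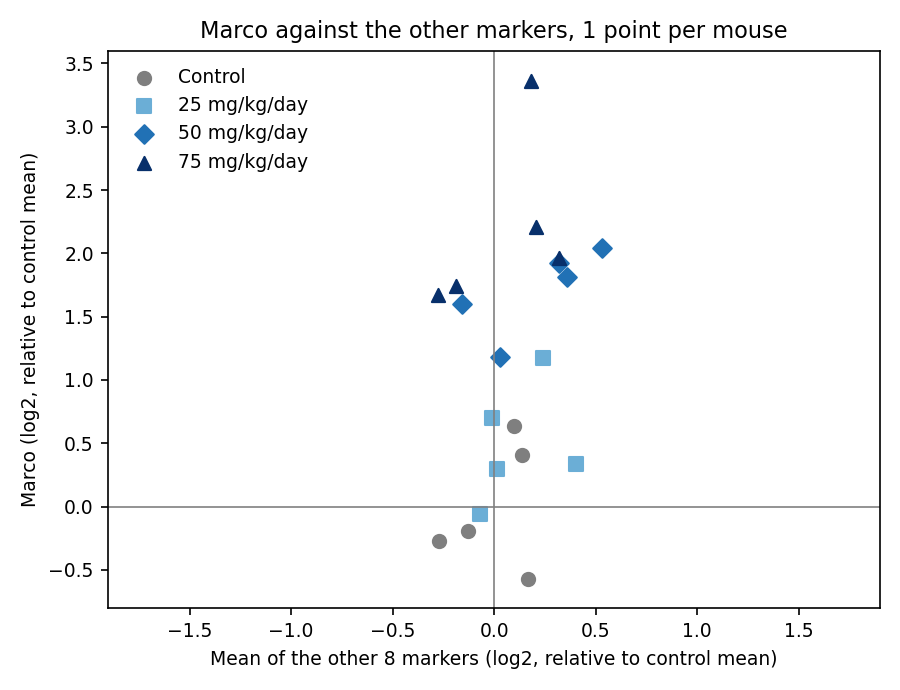
*Marco* (vertical axis) against the mean of the other 8 markers (horizontal axis), both as log2 ratios relative to the control mean, 1 point per mouse in 4 groups of 5. The mice at 50 and 75 mg/kg/day lie above all controls on the vertical axis and overlap them on the horizontal axis.

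Each exposed array was also set against the control of its own slide, by the brightest present probe of each gene. This was possible for 3, 5 and 3 arrays at 25, 50 and 75 mg/kg/day. *Marco* was above its slide's control in 2 of 3, 5 of 5 and 3 of 3 arrays. At 75 mg/kg/day the differences of *Clec4f*, *Vsig4*, *Timd4* and *C1qa* were above 0 in 1 of 3 arrays each, with a range from -1.23 to 0.67 for *Timd4*. Those of *Cd5l* were above 0 in 2 of 3. *Adgre1*, *Csf1r* and *Msr1* were below their slide's control in 3 of 3 arrays at 25 and at 75 mg/kg/day. The range for *Csf1r* was -0.56 to -0.38 at the upper of these. The second *Msr1* probe did not follow. On slides 1, 2 and 3 it read 0.77, 1.40 and 0.59 at 25 mg/kg/day and 0.82, 1.67 and 0.41 at 75 mg/kg/day. Its controls there were at 0.68, 0.66 and 0.75. The third *Msr1* probe was below its controls throughout. The second *Csf1r* probe was above its control on slide 1 at both doses (-0.40 and -0.60 against -0.65) and below elsewhere. *C1qa* was above its slide's control in 5 of 5 arrays at 50 mg/kg/day, by 0.21 to 0.75. At that dose *Vsig4*, *Cd5l* and *Msr1* were above it in 4 of 5 arrays, *Clec4f* and *Timd4* in 3 of 5, and *Adgre1* and *Csf1r* in 2 of 5. The share of all present probes with such counts was not taken, so nothing is read from the counts of this paragraph.

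**Figure D4:**
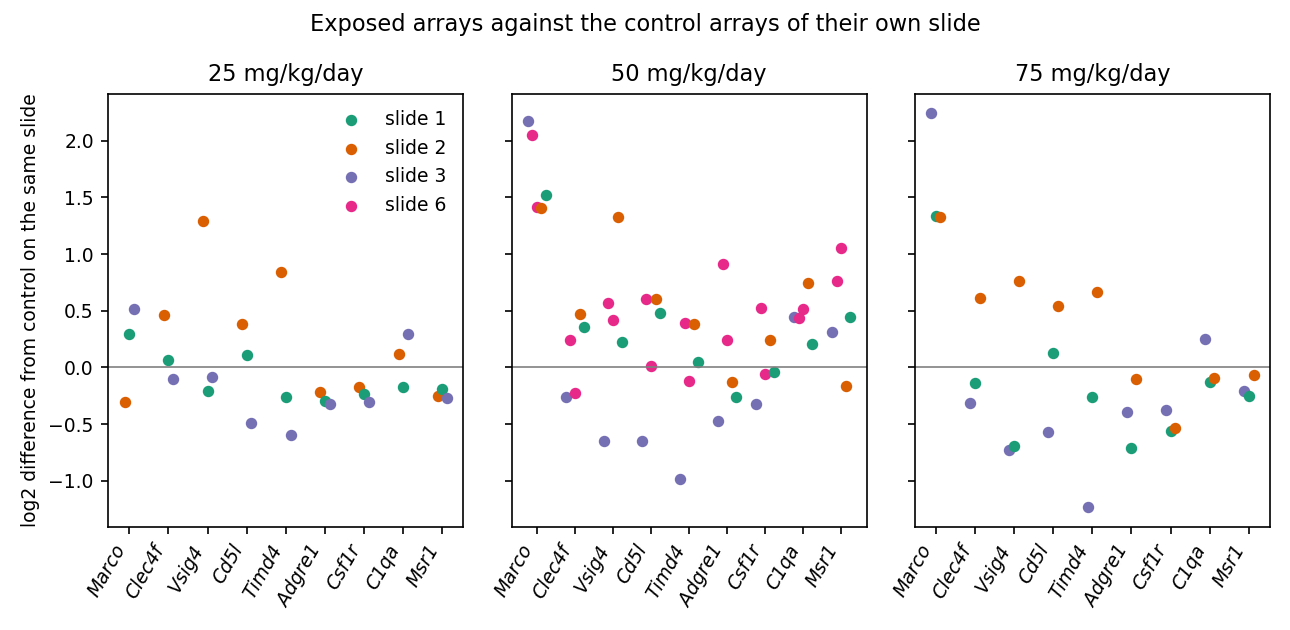
Log2 difference between each exposed array and the control on its own slide (vertical axis; slide 6 has the mean of 2 controls), by gene (brightest present probe) and dose, with colors for slides. *Marco* differs by 1.40 to 2.17 at 50 and by 1.32 to 2.24 at 75 mg/kg/day, while *Clec4f*, *Vsig4*, *Cd5l* and *Timd4* scatter on both sides of 0 at each dose.

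Whether *Marco* and the other markers varied together between mice of the same dose was examined with group means removed, a measure that the dose contrasts did not use. Over the 20 arrays and 8 relations, Pearson's r with *Marco* was 0.67 for *Adgre1* (permutation p = 0.0035, adjusted p = 0.027), 0.62 for *C1qa* (permutation p = 0.0068, adjusted p = 0.027) and 0.56 for *Csf1r* (permutation p = 0.014, adjusted p = 0.038). By Spearman's rho the values were 0.60, 0.65 and 0.46, with adjusted permutation p of 0.060, 0.050 and 0.12, none under 0.05. Without the 2 mice farthest from the median in *Marco*, r was 0.67 for *Adgre1*, 0.60 for *C1qa* and 0.31 for *Csf1r*, so the last rests on those mice. For the other 5 genes r lay between 0.076 for *Timd4* and 0.26 for *Clec4f* (adjusted permutation p of 0.542 or more). When slide means were also removed, r was 0.61 for *Adgre1*, 0.40 for *Csf1r* and 0.21 for *C1qa*, and the adjusted permutation p was 0.063, 0.17 and 0.61. None of the 8 relations passed within slides.

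The probes whose pattern over all 20 arrays was most like that of *Marco* were not among the markers. By Pearson's r, as a description over arrays that share slides and doses, they were *Cxcl16* (0.82, a chemokine that is also a scavenger receptor), *Cyp2c40* (0.81, a cytochrome P450), *Gstm4* (0.80, a glutathione transferase), *Abi3* (0.80) and *Cdkn1a* (0.80, the cell cycle inhibitor p21). The *Cxcl16* probe changed by 0.31 at 75 mg/kg/day, and the brighter *Cxcl16* probe by 0.12. *C1qa* came nearest among the markers (r = 0.54), with 211 of 18194 probes above it, followed by *Msr1* (0.43) and *Adgre1* (0.41). *Clec4f* was at 0.16, *Vsig4* at 0.11, and *Csf1r* and *Timd4* were both at -0.02. With group means removed, those near to it included *Cxcl13* (0.79, a B cell chemokine), *Ankrd27* (0.75), *Pira2* (0.72, a myeloid receptor) and *Cxcl16* (0.69).

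Further genes of Kupffer cells and macrophages were taken as a list of 25, all of which had a present probe that was well above background on 20 of 20 arrays. None passed the adjusted test at any dose. Of all 12986 genes, 0 were called at 25 and at 50 mg/kg/day, and 25 higher and 1 lower at 75 mg/kg/day. Their median log2 fold change was 0.089, 0.061 and 0.041 with increasing dose, and their mean log2 ratio lay between 0.73 and 0.95 on the control arrays and between 0.73 and 1.1 on those at 75 mg/kg/day. At the top dose 14 of 25 lay above 0, against 6476 of all 12986 genes. With an unadjusted p under 0.05, 5 were higher and 1 lower, against 984 and 640 of all genes. The 2 largest changes at that dose were those of *Lyz2* (lysozyme, 0.80, adjusted p = 0.246 from limma) and *Cd14* (a co-receptor for bacterial lipopolysaccharide, -0.48, adjusted p = 0.364). *Cd163*, the hemoglobin scavenger receptor of resident macrophages, was at -0.34, and *C1qb* and *C1qc*, the partners of *C1qa*, were at 0.35 and 0.17.

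Of 13 other scavenger receptor genes, 12 were tested and 0 passed at any dose, with medians of 0.13, 0.18 and 0.19. The largest changes at 75 mg/kg/day were those of *Colec12* (a collectin of the same receptor class, -0.78, adjusted p = 0.231 from limma) and *Cd36* (a fatty acid and lipoprotein receptor, 0.47, adjusted p = 0.555). *Scara3* and *Scara5*, also of class A, were at 0.23 and -0.18. Of 14 genes for macrophage growth factors and bacterial sensing, 12 were tested and 0 passed. *Nfe2l2*, which encodes the oxidative stress factor NRF2, was at 0.48 (adjusted p = 0.348 from limma), *Tlr4* at -0.20, *Tlr2* at 0.18, *Csf1* at -0.090 and *Csf2ra* at 0.35. Of 15 genes of monocytes and recruited macrophages, 13 were tested and 0 passed, with medians of -0.10, 0.0009 and -0.046. The largest changes at 75 mg/kg/day were those of *Ccr2* (the chemokine receptor of inflammatory monocytes, 0.27, well above background on 6 of 20 arrays) and *Ly6a* (0.27).

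Markers of the other cells of the tissue were set beside *Marco*. Of all 12986 genes, 6153, 6325 and 6476 lay above 0 with increasing dose, and at 75 mg/kg/day 25 were called higher and 1 lower. For sinusoidal endothelium, whose cells lie next to Kupffer cells, 9 of 9 genes were tested and 9 of 9 lay above 0 at 75 mg/kg/day. Their medians were 0.35, 0.30 and 0.35. Among them 1 was called, *Lyve1* (a hyaluronan receptor), at 2.23 (adjusted p = 0.0189 from limma), followed by *Cdh5* at 0.78 (adjusted p = 0.452). Apart from these 2 genes, the changes at 75 mg/kg/day ran from 0.16 to 0.58. The mean log2 ratio of all 9 genes, with *Lyve1* included, lay between 2.45 and 3.24 on the control arrays. It lay between 3.21 and 3.90 at 75 mg/kg/day. For hepatocytes, 7 of 8 genes were tested and all 7 lay above 0 at each dose, with medians of 0.33, 0.27 and 0.40, and 0 were called. Their 2 largest were *Apoa1* and *Tat*, both at 0.49. Their mean log2 ratio lay between 4.31 and 5.56 in control and between 5.04 and 5.43 at 75 mg/kg/day. The part of these cells in the *Marco* values was not tested.

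Among the remaining lists, 0 genes were called at any dose. For neutrophils 4 of 8 were tested, led at 75 mg/kg/day by *S100a9* (1.34, adjusted p = 0.188 from limma) and *S100a8* at 0.39, while *Elane* was well above background on 0 of 20 arrays. For dendritic cells 6 of 7 were tested, led by *H2-Ab1* (0.69, adjusted p = 0.0501 from limma) and *Itgax* (0.16). For B cells 3 of 5 were tested, among them *Cd79b* (0.022), and for T and NK cells 4 of 7, led by *Cd3e* (-0.22) and *Cd3d* (0.15). Some sample labels name lungs beside liver, where *Marco* marks alveolar macrophages. Of the genes of those macrophages, 5 of 8 were tested, led by *Pparg* (-0.22) and *Chil3* (0.17), and 0 were called. *Siglecf* and *Car4* were well above background on 0 of 20 arrays, *Krt79* on 1, *Ear1* on 11, and *Chil3*, *Fabp4* and *Pparg* on 20. Of the lung epithelium genes, 5 of 7 were tested, led by *Sftpd* (1.19, adjusted p = 0.0688 from limma) and *Aqp5* (-0.18), and 0 were called. The surfactant genes *Sftpb* and *Sftpc* were well above background on 0 of 20 arrays, *Sftpa1* on 16 and *Sftpd* on 19, and *Ager* was so on 1, *Scgb1a1* on 5 and *Aqp5* on 20. Whether RNA of lung was present was not tested. *Cd163*, *C1qb*, *C1qc*, *Scara3*, *Scara5*, *Tlr2*, *Tlr4*, *Csf1*, *Csf2ra*, *Elane*, *Siglecf*, *Car4*, *Krt79*, *Ear1*, *Fabp4*, *Sftpa1*, *Sftpb*, *Sftpc*, *Ager* and *Scgb1a1* were named after their values were seen.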

How the data were processed

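Liver RNA of 20 mice and a common reference RNA were measured on 20 two-color arrays. The median spot and background intensity in each channel was deposited by the authors as extracted by the scanner software, without normalization. The processed intensities, also deposited, come from the same software after background subtraction and dye normalization, and the log2 ratios deposited by the authors were normalized by LOWESS. The median intensities were background corrected here by normexp (offset 50), normalized by loess within arrays and averaged for each probe, in R 4.3.3 with limma 3.58.1. Correlation with the deposited log2 ratios was 0.994 to 0.996. A probe was present when, in 4 or more of the 5 arrays of a group, its liver signal passed a limit set from the 153 negative control spots (their mean and 3 SDs, both after a 5% trim).

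One limma model of the 20 arrays gave each dose against control and the steps, and another the trend, two-sided, with Benjamini-Hochberg adjustment over all present probes and calls where the adjusted p was below 0.05 and the change over 1.5-fold (the trend without the latter). MAANOVA, which the study used, was not used here. Correlations used 100000 permutations within groups, two-sided (scipy). Alternatives were other background corrections and normalizations, no presence filter, slide as a block, the arrays of 1 dose and control alone, and each array left out.

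Symbols came from RefSeq accessions (23374 probes). The brightest present probe stands for a gene. The named genes were all members, the 5 probes nearest to *Marco* by each of 2 measures, and from each list those called and the 2 with the largest change at 75 mg/kg/day. Of the genes so named, 2 are not reported here. The members and lists were chosen with earlier results of these data known. Both liver and lungs occur in the labels, and the tissue is given here as liver after the study's methods. The series text gives 24 mg/kg for the lowest dose, and 25 was used, as in the sample labels. The study left out 1 unnamed sample, while all 20 are used here. The number of arrays limits the precision.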

Additional observations from a re-analysis of the deposited data

Results flagged for a closer look

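Of 36 sets of 5 arrays (9 genes in 4 groups), 2 held a value far from the others of its set by Dixon's criterion, which chance meets in about 1 of 20 sets. *Clec4f* in control replicate 1 was at a log2 ratio of 4.99, where the nearest other control was at 4.81 and the gap was 0.733 of the range. *Timd4* at 25 mg/kg/day was at 2.05 in replicate 8, where the nearest other mouse was at 1.32 and the gap was 0.77 of the range.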

How the results depend on the processing

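No paired analysis was possible because the replicate numbers run from 1 to 20 without any number shared between groups, so arrays were matched by the slide they share instead, as a block and within slides. *Marco* stayed above 0 at every dose in every alternative model. Its log2 fold change with each array left out ran from 0.32 to 0.65 at 25 mg/kg/day (lowest without replicate 6, highest without control replicate 5), from 1.57 to 1.87 at 50 and from 1.89 to 2.35 at 75 mg/kg/day, and under the other settings from 0.060 (slide as a block) to 0.56, from 1.56 to 1.88 and from 1.76 to 2.38. Without control replicate 4, which stood apart in depth, no marker other than *Marco* was called at any dose. The count of called probes other than *Marco* was 0 at each dose, step and trend under every alternative run. In the main model 0% of all present probes were called at 25, at 50 and for the steps, so *Marco* was not called there either. At 75 mg/kg/day 0.132% were called higher and 0.00366% lower. Against such shares a count of 0 is not a result about the markers. The shares under the alternatives are not given here. With the processed signals the *Timd4* change was 1.19 at 25 and 0.69 at 75 mg/kg/day, without a call. For control liver against reference, 7 to 10 of the 12 probes were called.

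Small changes that passed no test changed sign. With the processed signals, the log2 fold change was 0.0025 for *Msr1* at 25, -0.069, -0.066 and 0.016 for *Clec4f*, *Vsig4* and *Timd4* at 50, and -0.086 for *Vsig4* at 75 mg/kg/day. With the liver channel alone, it was -0.021, -0.053, 0.10, 0.014 and 0.14 for *Cd5l*, *Timd4*, *Adgre1*, *Csf1r* and *Msr1* at 25, and -0.10, -0.18, -0.041 and -0.11 for *Clec4f*, *Vsig4*, *Cd5l* and *Timd4* at 75 mg/kg/day. With slide as a block, it was -0.014 for *Timd4* at 25, and -0.0042, -0.047, -0.14, -0.11 and -0.0028 for *Clec4f*, *Vsig4*, *Timd4*, *Adgre1* and *Msr1* at 75 mg/kg/day. With each array left out, *Adgre1* ranged from -0.20 to 0.079 at 25, from -0.094 to 0.18 at 50 and from -0.075 to 0.20 at 75 mg/kg/day, *Csf1r* from -0.13 to 0.0054 at 25 and from -0.044 to 0.17 at 50, and *Msr1* from -0.17 to 0.044 at 25 and from -0.040 to 0.17 at 75. *Timd4* ranged from -0.16 to 0.11 at 50 and from -0.097 to 0.22 at 75, and *Vsig4* from -0.15 to 0.15 at 75 mg/kg/day.

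Correlations with *Marco* within groups changed their side of the threshold. With slide means also removed, r was 0.61 for *Adgre1*, 0.40 for *Csf1r* and 0.21 for *C1qa*, none past the threshold, and -0.15, -0.028, -0.16 and -0.32 for *Clec4f*, *Vsig4*, *Cd5l* and *Timd4*. With the deposited log2 ratios, *Csf1r* was at 0.47 and no longer passed, while *Adgre1* (0.65) and *C1qa* (0.68) did. The cause was not tested.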
